A study of Mus musculus with 4 samples.

Results

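Histone genes encode the proteins around which DNA is wrapped, and 75 of the 33565 genes in the count matrices were histone genes by symbol. The members were the genes whose symbols start with H1f, H2ac, H2bc, H2az, H3c, H3f3 or H4c followed by a digit or letter, together with H2ax. Classes were set by symbol from the known roles of the gene families, so single members may differ from their class. The replication-dependent class took H1f1 to H1f5 and every H2ac, H2bc, H3c and H4c gene. This gave 63 replication-dependent genes, 6 replacement histones (H1f0, H1f10, H2az1, H2az2, H3f3a and H3f3b) and 4 germline linker histones (H1f6 to H1f9). H2ax was kept as a class of its own, and the remaining member, H3f3aos, is an antisense transcript of H3f3a rather than a histone gene. The replication-dependent class held 5 linker genes (H1f1 to H1f5), 17 H2A genes, 17 H2B genes, 12 H3 genes and 12 H4 genes.

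The counts came from a CapSeq experiment, a split-pool single-cell RNA sequencing (scRNA-seq) method, in which each line received its own set of first-round barcodes (BC1). Neuro-2a (N2a) cells, a mouse neuroblastoma line, and NIH/3T3 cells, a mouse embryonic fibroblast line, were grown in DMEM with serum. Mouse embryonic stem cells (mESCs) of the E14TG2a line were grown on gelatin in DMEM with serum, leukemia inhibitory factor, CHIR99021 and PD0325901, so the line and the medium cannot be told apart in any comparison with mESCs. No line carried a further treatment or engineered genotype in the labels, and each was represented by 1 library, so no p-value is given and every interval covers counting error only.

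Barcodes with a minimum of 1000 UMIs and no more than 20% of them from mitochondrial genes were kept as cells, which left 2323 N2a, 2037 NIH/3T3 and 2137 mESC barcodes, with median depths of 6185, 4863 and 4803 UMIs and totals of 17955221, 11697865 and 12322098 UMIs. No barcode was shared between lines. Of 8 marker genes per line, 6 N2a, 7 NIH/3T3 and 7 mESC markers were highest in their own line, while Postn in NIH/3T3 cells and Sox2 in mESCs were at 0. Levels are given as CPM, the UMIs of a gene per 1000000 UMIs summed over the cells of a line, without division by gene length, with exact Poisson 95% intervals. The 32 BC1 sequences of each line are parts of 1 culture rather than replicates, and their lowest, median and highest values are given as a description of spread.

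Replication-dependent histones supply new chromatin during DNA replication. Their genes lie in clusters, are mostly free of introns, and give mRNAs that usually end in a conserved stem-loop instead of a poly(A) tail; the stem-loop is bound by the protein Slbp and is needed for processing and for rapid decay when S phase ends. Replacement histones are made throughout the cell cycle from ordinary polyadenylated mRNAs, and are deposited outside replication: H3f3a and H3f3b encode H3.3, H2az1 and H2az2 encode H2A.Z, and H1f0 and H1f10 encode linker variants. H2ax, the histone phosphorylated at DNA breaks, is known to be made in both forms. The labels describe the assayed molecule as polyA RNA, so the levels below are those of captured RNA, and the captured share of each gene's RNA was not measured.

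The stem-loop was searched for as a 16-base pattern within 300 bases after the coding sequence in GRCm39, because it is the feature that separates the classes at the level of RNA. It was found after 59 of 63 replication-dependent genes, 0 of 6 replacement genes, H2ax and H1f6, compared with 10 of 21520 other protein-coding genes (0.0465%). It was not found for H2ac22, H2bc21, H2bc22 and H2bc24. The start of the pattern lay between 25 and 62 bases after the last codon before the stop codon, with a median of 35 bases. These distances thus include the stop codon. The variants that separated the families follow, written from 5′ to 3′ on the strand of the gene as DNA, with the arms that can pair in capitals and the loop in lower case.
Most H1, H2A, H2B and H3 genes (37 members, such as H1f5 at chr13:21964007-21964022, minus strand): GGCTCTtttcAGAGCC
9 members including H3c3, H3c6, H2ac21 and H1f6: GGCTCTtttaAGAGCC
H2ac20: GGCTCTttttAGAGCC
H3c8: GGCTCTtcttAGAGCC
7 H4 genes (such as H4c4 at chr13:23765933-23765948, plus strand): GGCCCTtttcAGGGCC
H4c9 and H4c14: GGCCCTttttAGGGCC
H4c2 and H4c11: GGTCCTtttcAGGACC
H4c1: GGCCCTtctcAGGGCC
H2ax (chr9:44246537-44246552, plus strand): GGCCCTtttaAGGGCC
Every variant printed for an H4 gene, and that of H2ax, had a stem of other letters than the H1, H2A, H2B and H3 variants, and the pairs within each stem were complementary.

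Of the replication-dependent genes, 53 lay on chromosome 13 and 10 on chromosome 3, and 55 had a single exon in all annotated transcripts (GENCODE M39). The hexamer AATAAA, the common poly(A) signal, was found after the coding sequence in an annotated transcript of 16 of 63 replication-dependent and 6 of 6 replacement genes, compared with 84.8% of the other coding genes. Only annotated bases were searched, so a gene annotated no further than its coding sequence could not be counted. These shares thus depend on annotated length as well as on class. Gene ends were taken from GENCODE M39, while the authors counted UMIs with an earlier release, so the ends used in counting may differ. The M39 annotation reached at least 100 bases past the stem-loop for 22 replication-dependent genes, with a median of 276.5 UMIs over the 3 lines. It ended 0 to 99 bases past it for 21 genes, with a median of 131 UMIs, and before its end for 16 genes, with a median of 175 UMIs. The last group ranged from 0 to 20290 UMIs and held H1f5, and the median did not rise step by step with the annotated length.

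The promoters of these genes also had common letters. In RefSeq promoter sequences (GRCm38.p6, 250 bases before to 50 after the start; TATAAA searched on the strand of the gene, CCAAT and ATTTGCAT on both strands), 57 of 63 replication-dependent genes were matched. A gene was counted for a motif if any of its promoters held it. TATAAA was found in 50.9% of the matched genes and in 9.77% of all 27025 genes in the table, and CCAAT in 86.0% and 41.1%. CCAAT was found for every matched H1, H2A, H2B and H3 gene but for only 3 of 11 H4 genes. ATTTGCAT, the octamer known from H2B promoters, was found for 7 of 14 H2B and 6 of 17 H2A genes. It was found for none of the matched replication-dependent H1, H3 or H4 genes, and for 1.97% of all genes in the table. Of the 6 replacement genes, 4 held CCAAT, 1 held TATAAA and 1 held ATTTGCAT. These are matches of letters, and no binding was measured.

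One BC1 sequence of N2a cells stood apart in H2A genes. Its 69 cells had a replication-dependent H2A level of 768.7 CPM, where the next highest of the 32 N2a BC1 sequences was at 268.7 CPM and the median at 163.7 CPM. The barcode and the stretch of H2A coding sequence that holds its reverse complement are shown because the genes with the highest ratios there hold this match. Both are written 5′ to 3′, and the reverse complement of the barcode is in capitals in the H2A stretch, which is on the mRNA strand.
BC1 sequence: AGCTCCTC
H2A coding sequence, identical in H2ac4, H2ac8, H2ac13, H2ac15, H2ac20, H2ac22 and H2ax (in H2ax at chr9:44246323-44246348 of GRCm39, plus strand): cgcaacgacGAGGAGCTcaacaagct
This match of 8 bases was present in annotated transcripts of 18 members, which were the 17 replication-dependent H2A genes and H2ax. The 7 of them with at least 100 N2a UMIs were 2.26 to 6.16 times higher at this BC1 sequence than at the other 31 together. H2ac13 had 67 UMIs there (102 CPM, against 16.5 CPM at the others, ratio 6.16, 4.65 to 8.06), and H2ax had 72 UMIs (109 CPM against 33.01 CPM, ratio 3.31, 2.56 to 4.24). The H2A.Z genes H2az1 and H2az2, which lack the match, were at ratios of 0.897 and 0.791, and the 7 linker genes lay between 0.837 and 1.07. Some genes without the match were also higher there, with ratios of 2.22 (1.25 to 3.71) for H2bc11, 2.17 (1.26 to 3.51) for H4c18 and 1.31 (1.16 to 1.48) for H4c4, so H2bc11 and H4c18 were about level with the matched H2ac8 at 2.26. Among the members, the match was held by all replication-dependent H2A genes and H2ax and by no others. The match and this group of genes therefore cannot be told apart. What part the match has in these levels was not tested.

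**Figure D1:**
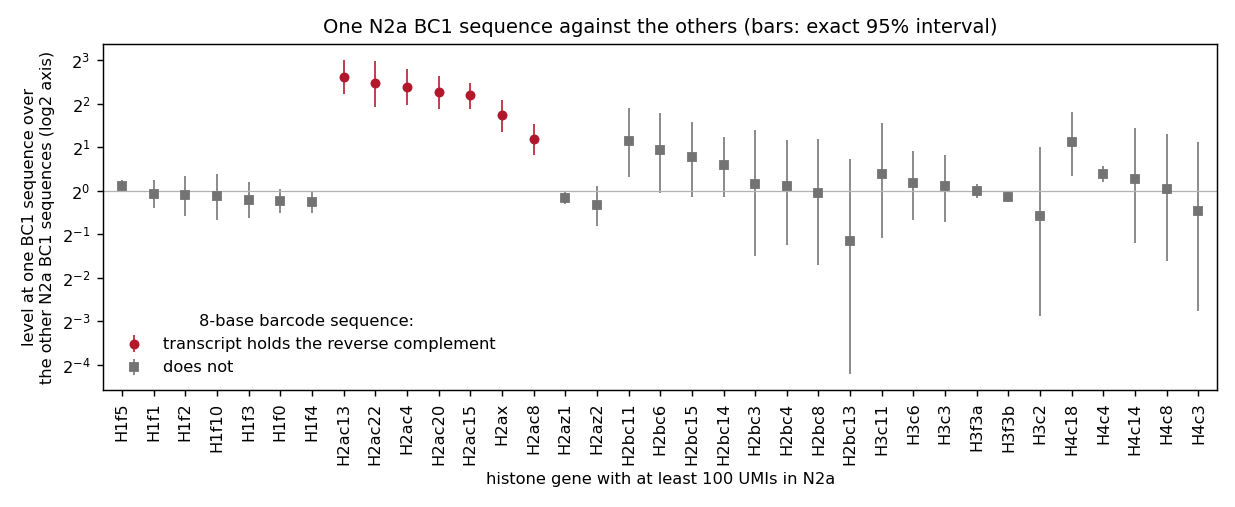
Ratio of the level at the N2a BC1 sequence AGCTCCTC to the level at the other N2a BC1 sequences, on a log2 axis, for the 35 histone genes with at least 100 UMIs in N2a cells, with exact 95% intervals as bars. Circles are genes with the reverse complement of the barcode in a transcript and squares are genes without it; the 7 circles lie at 2.26 to 6.16.

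Across the 96 BC1 sequences and all members with at least 100 UMIs in the line, 63 pairs of a BC1 sequence and a member had such an 8-base match and 2497 had none. The median ratio was 1.02 with a match and 0.968 without, and 7 of the 8 matched pairs with a ratio of at least 2 were at the barcode that prompted the comparison. At the other BC1 sequences, such a ratio was seen for 1 of 56 pairs with a match (1.79%) and 41 of 2469 without (1.66%). Without that BC1 sequence, the replication-dependent level of N2a cells was 1947 in place of 1974 CPM, the H2A sum 170.1 in place of 192.1 CPM and H2ax 33.01 in place of 35.8 CPM. The replication-dependent ratio of S-high to S-low N2a cells, described further on, was 2.01 in place of 2.04 without it.

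Replacement histones differed little in summed level between the 3 lines, while the replication-dependent class was lower in mESCs. Replacement genes summed to 2509 CPM in N2a cells (95% interval 2486 to 2533), 2469.7 CPM in NIH/3T3 cells (2441 to 2498) and 2504 CPM in mESCs (2476 to 2532). Replication-dependent genes summed to 1974 CPM in N2a cells (1954 to 1995), 1790.2 CPM in NIH/3T3 cells (1766 to 1815) and 980.3 CPM in mESCs (962.9 to 997.9). The N2a level was 2.01 times (1.97 to 2.06) and the NIH/3T3 level 1.83 times (1.79 to 1.87) the mESC level. Over BC1 sequences, the replication-dependent level ran from 1354 through a median of 1875 to 2695 CPM in N2a cells, from 931.3 through 1733 to 2593 CPM in NIH/3T3 cells, and from 710.3 through 937.5 to 1263 CPM in mESCs. The N2a and mESC ranges did not overlap, whereas the NIH/3T3 range overlapped both. The ratio of replication-dependent to replacement UMIs was 0.787 (0.776 to 0.798) in N2a cells, 0.725 (0.712 to 0.738) in NIH/3T3 cells and 0.391 (0.383 to 0.400) in mESCs.

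**Figure D2:**
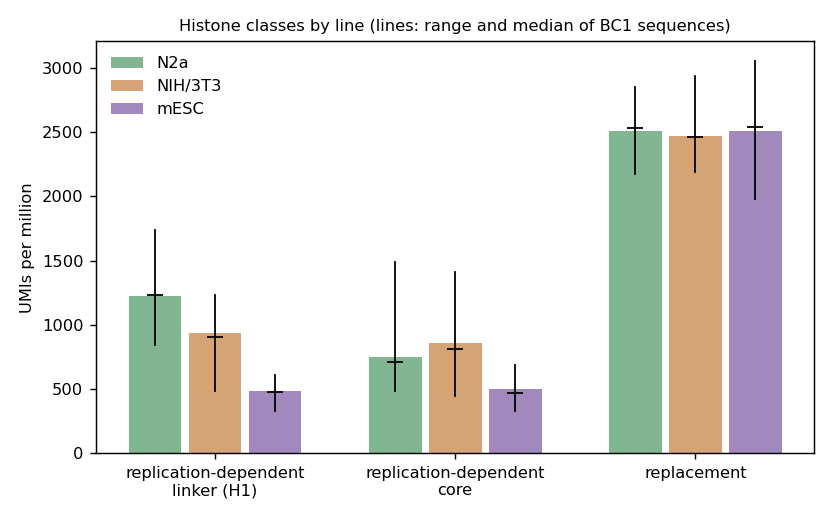
Level of replication-dependent linker, replication-dependent core and replacement histones in each line, in CPM. Bars are the level of the line, vertical lines span the lowest to the highest of 32 BC1 sequences and ticks are their median; replacement bars are level across the lines at 2469.7 to 2509 CPM, while both replication-dependent groups are lowest in mESCs.

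The lower level in mESCs was seen for linker and core genes alike. Linker genes H1f1 to H1f5 summed to 1224 CPM in N2a cells, 934.5 CPM in NIH/3T3 cells and 482.8 CPM in mESCs. The 58 core genes summed to 750.3, 855.6 and 497.5 CPM, so core RNA was higher in NIH/3T3 than in N2a cells by 1.14 times (1.11 to 1.17) while linker RNA was higher in N2a cells by 1.31 times (1.28 to 1.34). The direction of the core sum rested on H4c4: without it the sums were 419.4, 377.2 and 226.6 CPM, and N2a cells were higher than NIH/3T3 cells by 1.11 times (1.07 to 1.15). Among the 43 replication-dependent genes with at least 100 UMIs over the 3 lines, 34 (79.1%) had their lowest CPM in mESCs, compared with 34.5% of the 13087 genes of that depth. The S phase genes did not follow this order: the list of 53 S genes, fixed with earlier results in view, summed to 6096 CPM in N2a cells, 6350 CPM in NIH/3T3 cells and 10239 CPM in mESCs. Pcna, the sliding clamp of DNA polymerases, was at 180.1, 275.7 and 327.1 CPM, and Mcm5, a subunit of the replicative helicase, at 87.7, 115.3 and 245.4 CPM in the same order.

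Most replication-dependent UMIs came from few genes. The 5 linker genes gave 62.0% of them in N2a cells, 52.2% in NIH/3T3 cells and 49.3% in mESCs, and with H4c4 the shares rose to 78.8%, 78.9% and 76.9%. The other 37 core genes with at least 100 UMIs had levels between 2.00 and 51.3 CPM in N2a cells, between 1.54 and 47.6 CPM in NIH/3T3 cells and between 1.14 and 38.9 CPM in mESCs, with H2ac8 the highest in each line. Of all 75 members, 50 had at least 100 UMIs over the 3 lines, 25 had fewer, and 3 (H2bc1, H2bc18 and H1f7) had none. The 4 germline linker genes together had 18, 2 and 6 UMIs in N2a cells, NIH/3T3 cells and mESCs, and H3f3aos had 6, 4 and 0.

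**Figure D3:**
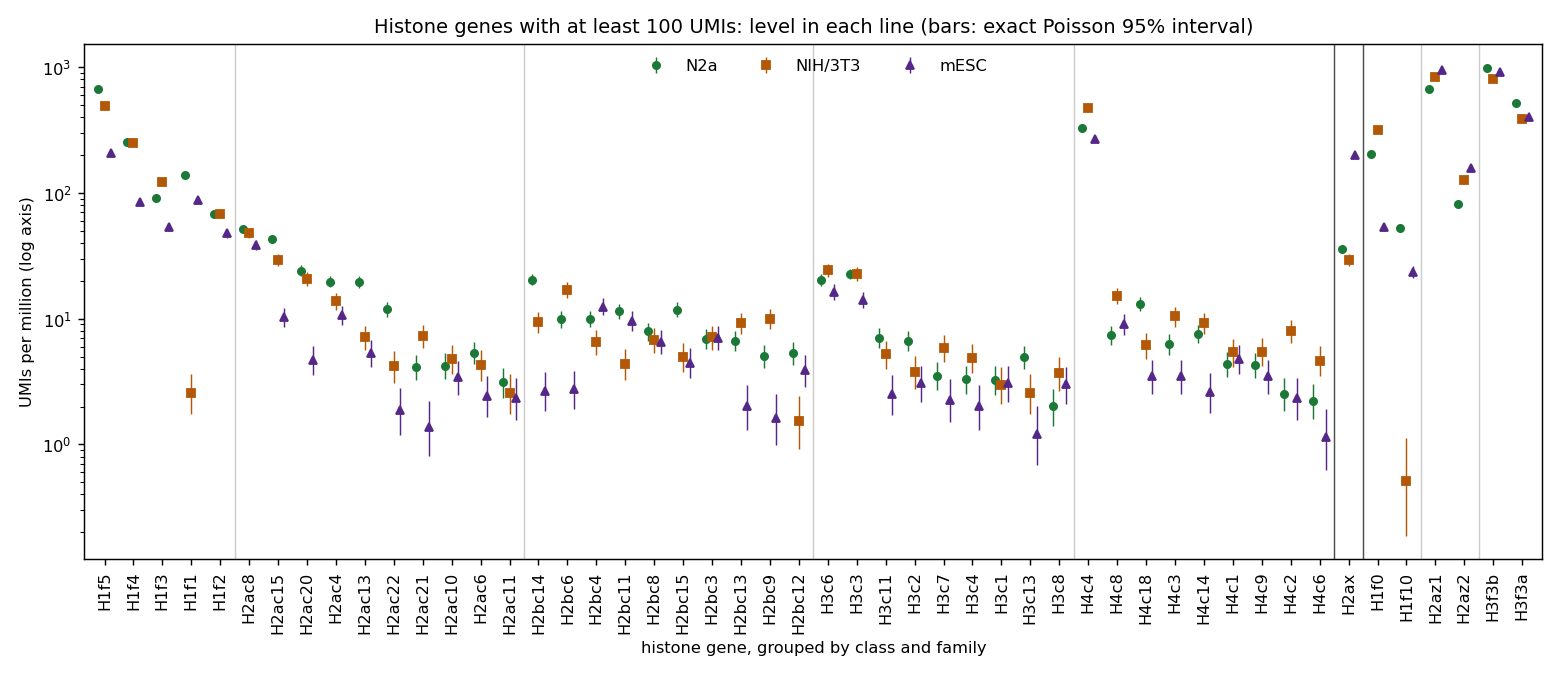
Level of each of the 50 histone genes with at least 100 UMIs in N2a (circles), NIH/3T3 (squares) and mESC (triangles) libraries, in CPM on a log axis, with exact Poisson 95% intervals as bars. Thin lines separate families and darker lines separate classes; H1f1 and H1f10 are far lower in NIH/3T3 cells than in the other lines, and H2ax is highest in mESCs.

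Near-identical copies limit the single-gene values of core histones. Windows of 89 bases, the number of cycles of the second sequencing read, were compared over GENCODE M39 transcripts. For 27 replication-dependent genes, more than 50% of windows also occurred in another gene. These genes had a median of 97 UMIs over the 3 lines, compared with 276.5 UMIs for the other 36. How reads that match several genes were counted is not given in the sources used here, so the split of counts among such copies is uncertain, and their sums by family are the firmer values. H4c4, with 1.05% of windows shared, and the linker genes H1f1 to H1f5, with 0% to 28.1% shared, are less touched by this. In addition, 35 replication-dependent genes overlap a gene annotated in GENCODE M39 on the other strand, among them H4c4 and H2bc6. H1f4 also overlaps H2bc6 on the same strand. The strand setting of the counting is not given. The authors counted with an earlier GENCODE release, and which of the 35 overlaps that release holds was not checked.

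The linker histones, which bind DNA between nucleosomes, differed in composition between the lines. H1f5 was the main replication-dependent linker gene in each line, at 668.4 CPM in N2a cells (BC1 range 454.1 to 968.0), 489.8 CPM in NIH/3T3 cells (262.5 to 646.2) and 207.6 CPM in mESCs (126.4 to 303.2), and every N2a BC1 sequence was above every mESC one. H1f4 was at 256.3, 251.1 and 85.3 CPM, which is 3.00 times (2.81 to 3.22) higher in N2a cells and 2.94 times (2.74 to 3.16) higher in NIH/3T3 cells than in mESCs. H1f3 and H1f2 varied less, with 90.7, 122.8 and 53.8 CPM for H1f3 and 68.4, 68.3 and 47.9 CPM for H1f2.

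H1f1 did not follow the other linker genes. It gave 2516 UMIs in N2a cells (140.1 CPM, BC1 range 80.5 to 242.3), 30 UMIs in NIH/3T3 cells (2.56 CPM, 0 to 8.28) and 1087 UMIs in mESCs (88.2 CPM, 49.3 to 124.7). The NIH/3T3 level was 54.6 times (38.2 to 81.2) below the N2a level and 34.4 times (24.0 to 51.2) below the mESC level, and no BC1 range of NIH/3T3 cells reached those of the other lines. H1f1 is a replication-dependent gene with the common stem-loop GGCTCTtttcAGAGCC and no shared windows. It made up 9.45% of the UMIs of 7 linker genes (H1f0 to H1f5 and H1f10) in N2a cells, 0.205% in NIH/3T3 cells and 15.7% in mESCs.

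The replacement linker genes moved in opposite ways to each other between N2a and NIH/3T3 cells. H1f10 gave 949, 6 and 290 UMIs, or 52.9, 0.513 and 23.5 CPM in N2a cells, NIH/3T3 cells and mESCs, so its level in NIH/3T3 cells was 103 times (47.2 to 282) below that in N2a cells. H1f0, the linker variant known to accumulate in non-dividing cells, was at 205.3 CPM in N2a cells (BC1 range 139.9 to 279.3), 314.3 CPM in NIH/3T3 cells (250.3 to 405.2) and 53.9 CPM in mESCs (29.3 to 81.1). All BC1 sequences of mESCs were below those of both other lines, and the NIH/3T3 level was 5.83 times (5.37 to 6.35) the mESC level. H1f0 thus made up 25.2% of linker UMIs in NIH/3T3 cells, 13.9% in N2a cells and 9.62% in mESCs.

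The core replacement genes stayed within 2-fold between the lines. H3f3b was at 983.4, 803.4 and 918.3 CPM in N2a cells, NIH/3T3 cells and mESCs, and H3f3a at 519.4, 387.5 and 404.6 CPM. H3f3b gave 65.4%, 67.5% and 69.4% of the H3.3 UMIs in that order. H2az1 was at 666.4, 837.5 and 944.8 CPM, and H2az2 at 82.0, 126.4 and 159.1 CPM, which makes both H2A.Z genes higher in mESCs than in N2a cells, by 1.42 times (1.38 to 1.45) and 1.94 times (1.81 to 2.08). The BC1 ranges of each of these 4 genes overlapped among the lines.

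H2ax went the other way from the replication-dependent class. It gave 643 UMIs in N2a cells (35.8 CPM, BC1 range 8.63 to 109.4), 345 UMIs in NIH/3T3 cells (29.5 CPM, 8.85 to 48.3) and 2483 UMIs in mESCs (201.5 CPM, 152.2 to 326.4). The mESC level was 5.63 times (5.16 to 6.15) the N2a level and 6.83 times (6.10 to 7.67) the NIH/3T3 level, and all mESC BC1 sequences were above those of the other lines. The highest N2a value belongs to the BC1 sequence AGCTCCTC, and without it the mESC level was 6.10 times the N2a level.

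With a threshold of 2-fold on CPM + 1, over genes with at least 10 UMIs in the 2 lines together, few members differed between N2a and NIH/3T3 cells. N2a cells were higher for 9 of 63 tested members, against 19.6% of all genes tested, and NIH/3T3 cells for 2 of 63, against 16.5%. The genes higher in N2a cells were H1f1, H1f10, H2ac13, H2ac22, H2bc11, H2bc12, H2bc14, H2bc15 and H2bc21, and those higher in NIH/3T3 cells were H2bc7 and H4c2. With a pseudocount of 5 CPM in place of 1, 3 and 0 members were called, so most of these calls rest on low genes. The share over all genes at that pseudocount is not given here, so the drop is not particular to histone genes. The median log2 ratio over 54 tested replication-dependent genes was 0.02, and over all genes tested 0.10.

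Against mESCs, the called members were mostly lower in mESCs, and most members tested were replication-dependent genes. N2a cells were higher for 18 of 62 tested members, against 19.1% of all genes tested. These were 16 of 54 tested replication-dependent genes and 2 of 6 replacement genes (H1f0 and H1f10). NIH/3T3 cells were higher for 17 of 59, against 19.1%, which were 16 of 52 replication-dependent genes and 1 of 6 replacement genes (H1f0). In the other direction, mESCs were higher than N2a cells for 3 of 62 members (H2ax, H2bc7 and H2ac1), against 20.1%, and higher than NIH/3T3 cells for 4 of 59 (H2ax, H1f1, H1f10 and H2ac1), against 24.3%. With a pseudocount of 5 CPM, N2a cells were higher than mESCs for 10 members and NIH/3T3 cells for 9, and mESCs were higher than N2a cells for 1. These counts too have no share over all genes beside them. The median log2 ratio of replication-dependent genes was 0.64 for N2a cells over mESCs, with 0.02 over all genes tested, and 0.58 for NIH/3T3 cells over mESCs, with -0.09 over all genes tested. Both of these comparisons use the same mESC library. Without the N2a BC1 sequence that stood apart, 1 call was lost (H2ac21, higher in N2a cells than mESCs) and 1 gained (H2ac7, higher in NIH/3T3 than N2a cells).

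Core genes called in both comparisons with mESCs included H2ac20, at 24.1, 20.6 and 4.71 CPM in N2a cells, NIH/3T3 cells and mESCs, and H2ac15, at 42.9, 29.3 and 10.3 CPM. H2bc14 was at 20.5, 9.40 and 2.68 CPM, and H2bc6 at 9.86, 16.9 and 2.76 CPM. Others were closer between the lines, such as H2bc3 at 6.91, 7.10 and 7.06 CPM, and H2ac8 at 51.3, 47.6 and 38.9 CPM, which was 1.32 times (1.18 to 1.48) higher in N2a cells than in mESCs. H4c4, the core gene with the most UMIs, was at 330.9 CPM in N2a cells, 478.4 CPM in NIH/3T3 cells and 270.9 CPM in mESCs. A few low genes had a pattern of their own: H2bc7 gave 3 UMIs in N2a cells against 54 in NIH/3T3 cells and 40 in mESCs, and H2ac1, a testis-associated H2A gene, gave 2, 0 and 17.

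By the stricter description that every BC1 sequence of one line lies above every one of the other, few members were separated. Many core genes, such as H4c14, H2bc13 and H4c3, had a lowest BC1 value of 0 in each line. Such genes cannot be separated by this rule, so the counts also depend on depth. N2a cells were above NIH/3T3 cells for H1f1 and H1f10 (2 of 63, against 7.7% of all genes tested), and NIH/3T3 cells were above N2a cells for 0 of 63 (against 6.67%). N2a cells were above mESCs for H1f5 and H1f0 (2 of 62, against 7.63%) and mESCs were above N2a cells for H2ax (1 of 62, against 7.65%). NIH/3T3 cells were above mESCs for H1f0 (1 of 59, against 6.68%), and mESCs were above NIH/3T3 cells for H1f1, H1f10 and H2ax (3 of 59, against 7.16%).

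To relate the histone genes to S phase, each cell was thinned to 1000 UMIs and scored by its UMIs from the 53 S genes, a list that holds no histone gene. Cells at or below the 33rd percentile of their line were called S-low and those at or above the 67th percentile S-high, and the levels were taken from all UMIs of these cells. The scores are ranges rather than cell cycle phases, and 268 N2a, 246 NIH/3T3 and 232 mESC cells lay exactly at the lower boundary. The mean score of S-low and S-high cells was 2.54 and 10.0 in N2a cells, 3.42 and 10.0 in NIH/3T3 cells, and 6.28 and 14.4 in mESCs, so the ranges sit at other scores in mESCs. Median depths were close, at 6329 and 6017 UMIs in N2a cells, 4669 and 5031 in NIH/3T3 cells, and 4602 and 5003 in mESCs.

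Replication-dependent histones were higher in S-high cells of N2a and NIH/3T3, and by little in mESCs, while replacement histones differed by 1.06 times or less. In N2a cells the replication-dependent level was 1331 CPM in S-low, 1881 CPM in intermediate and 2709 CPM in S-high cells, a ratio of 2.04 (1.99 to 2.09). In NIH/3T3 cells it was 1297, 2033 and 2256 CPM, a ratio of 1.74 (1.69 to 1.80), and in mESCs 911.0, 991.6 and 1039 CPM, a ratio of 1.14 (1.09 to 1.19). The replacement ratio was 1.06 (1.04 to 1.08) in N2a cells, 1.02 (0.989 to 1.04) in NIH/3T3 cells and 1.00 (0.975 to 1.03) in mESCs. The size of the replication-dependent ratio depended on the split. With the unthinned share of S-gene UMIs it was 3.07 in N2a cells, 2.88 in NIH/3T3 cells and 1.31 in mESCs. With Pcna and Mcm5 only it was 1.43, 1.26 and 1.09 in the same order. For scale, the S genes themselves differed by 2.32, 1.67 and 1.34 times between the ranges by construction, and members of that list differed likewise, Pcna by 3.24, 1.68 and 1.33 times and Mcm5 by 2.29, 1.74 and 1.29 times. The difference between lines was not tested, since the ranges of the score differ and each line is 1 library.

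All 5 replication-dependent families shared the direction in N2a and NIH/3T3 cells. The N2a ratios were 2.00 for H1, 2.39 for H2A, 2.21 for H2B, 2.05 for H3 and 1.95 for H4, and the NIH/3T3 ratios 1.85, 2.06, 1.90, 1.58 and 1.50. In mESCs the H1 ratio was 1.20 (1.13 to 1.28), the H2A ratio 1.27 (1.10 to 1.48) and the H4 ratio 1.10 (1.02 to 1.19), while the intervals for H2B (0.983, 0.820 to 1.18) and H3 (0.843, 0.694 to 1.02) held 1. At a threshold of 1.5-fold on CPM + 1, 39 of 52 tested replication-dependent genes were higher in S-high N2a cells, against 3.72% of all genes tested outside the S list. In NIH/3T3 cells 35 of 49 were higher, against 3.03%, and in mESCs 5 of 48 (H2ac15, H2ac20, H2bc15, H4c6 and H4c18), against 2.71%. No replacement gene passed this threshold in any line, of 6 tested in N2a cells, 5 in NIH/3T3 cells and 6 in mESCs.

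Replication-dependent genes with many UMIs had the same direction in N2a cells at different sizes. H1f1 had the largest ratio of the 5 linker genes in N2a cells, from 75.3 CPM in S-low to 218.5 CPM in S-high cells, a ratio of 2.90 (2.63 to 3.21). H1f5 went from 419.2 to 945.4 CPM in N2a cells, a ratio of 2.26 (2.16 to 2.36), and from 323.7 to 650.2 CPM in NIH/3T3 cells, a ratio of 2.01 (1.89 to 2.14). The N2a ratios of H1f3, H1f4 and H1f2 were smaller, at 1.61, 1.46 and 1.39. In mESCs, H1f5 was at 188.9 and 230.5 CPM (ratio 1.22, 1.11 to 1.34), H1f3 at 41.0 and 61.2 CPM (1.49, 1.23 to 1.82) and H1f1 at 83.1 and 95.7 CPM (1.15, 0.995 to 1.33).

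H4c4 was at 230.2 and 449.1 CPM in S-low and S-high N2a cells (ratio 1.95, 1.84 to 2.07), at 380.4 and 555.4 CPM in NIH/3T3 cells (1.46, 1.37 to 1.55) and at 255.1 and 278.0 CPM in mESCs (1.09, 1.00 to 1.19). H2ac8 and H2ac15 were 2.53 and 2.73 times higher in S-high N2a cells, and 2.04 and 2.01 times higher in S-high NIH/3T3 cells. The replacement linker genes were lower in S-high N2a cells, with a ratio of 0.840 (0.780 to 0.904) for H1f0 and 0.828 (0.714 to 0.959) for H1f10. H2ax was 1.52 times (1.27 to 1.83) higher in S-high N2a cells, and its ratio was 0.975 (0.753 to 1.26) in NIH/3T3 cells and 1.00 (0.907 to 1.10) in mESCs.

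At the same score the lines still differed in replication-dependent level, although an equal score was not an equal place in the range of each line. Among cells with 8 or 9 S-gene UMIs per 1000, it was 2501 CPM in 298 N2a cells (2434 to 2569), 2058 CPM in 347 NIH/3T3 cells (1996 to 2121) and 942.0 CPM in 438 mESCs (904.6 to 980.5). Such cells were S-high in N2a (boundary at 7) and NIH/3T3 (boundary at 8). In mESCs, 8 was the S-low boundary and 12 the S-high boundary. From the score range 0 to 1 to the range 13 to 16, the N2a level went from 911.3 to 3353 CPM and the NIH/3T3 level from 576.2 to 2867 CPM. In mESCs it was 617.0 CPM in 42 cells at a score of 2 to 3, 902.3 CPM at 4 to 5 and 1138 CPM in 133 cells at 17 and above. Ranges of 6 NIH/3T3 cells at the top and 7 mESCs at the bottom were too small to read. Replacement levels lay between 2111 and 2666 CPM in the N2a ranges, and the lowest of them was in the cells with a score of 0 to 1. Across cells, the rank correlation of the thinned replication-dependent UMIs with the score was 0.355 in N2a cells, 0.220 in NIH/3T3 cells and 0.0628 in mESCs, where both values come from the same 1000 UMIs of a cell.

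**Figure D4:**
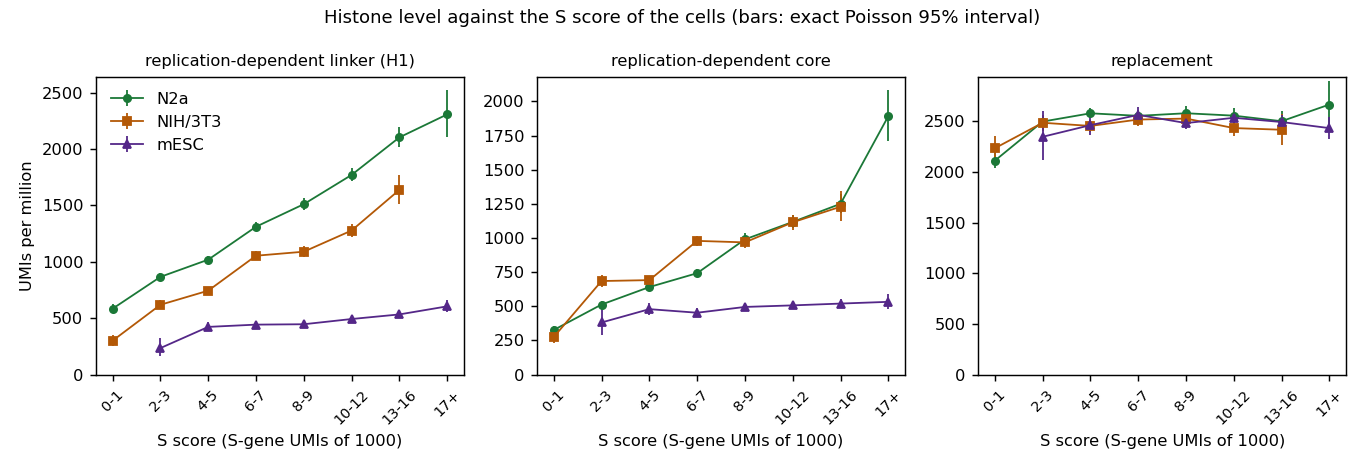
Level of replication-dependent linker, replication-dependent core and replacement histones (CPM) in cells grouped by S score, the number of S-gene UMIs in 1000, for N2a (circles), NIH/3T3 (squares) and mESC (triangles) cells. Bars are exact Poisson 95% intervals and ranges with fewer than 20 cells are not drawn; both replication-dependent panels are higher at high than at low scores in N2a and NIH/3T3 cells, and the mESC linker level goes from 235 to 605 CPM and the core level from 382 to 533 CPM, and the replacement panel is level above a score of 1.

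The split was repeated with 40 G2/M genes such as Top2a and Ccnb1, since S and G2/M RNAs overlap in time. The replication-dependent level was 2.16 times (2.11 to 2.22) higher in G2/M-high than in G2/M-low N2a cells, and 1.95 times (1.88 to 2.03) higher in NIH/3T3 cells, but its ratio was 0.732 (0.703 to 0.763) in mESCs. In the last line, 1105 CPM in G2/M-low cells and 1114 CPM in intermediate cells stood against 809.5 CPM in G2/M-high cells. In N2a cells 44 of 51 tested replication-dependent genes were at least 1.5-fold higher in G2/M-high cells (against 5.15% of all genes tested outside the G2/M list), in NIH/3T3 cells 31 of 47 (against 5.73%), and in mESCs 0 of 49 (against 4.46%). The mean G2/M score was 5.21 in S-low and 5.08 in S-high N2a cells, 7.59 and 6.26 in NIH/3T3 cells, and 8.32 and 7.46 in mESCs.

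The replacement class was higher in G2/M-high cells of N2a, by 1.22 times (1.20 to 1.25), and of NIH/3T3, by 1.32 times (1.28 to 1.36), while its mESC ratio was 1.02 (0.995 to 1.05). At 1.5-fold, 2 of 6 tested replacement genes were higher in N2a cells (H1f0 and H2az2, against 5.15% of all genes tested), 1 of 5 in NIH/3T3 cells (H1f0, against 5.73%) and 0 of 6 in mESCs (against 4.46%). H1f0 was at 138.7 and 263.6 CPM in G2/M-low and G2/M-high N2a cells, a ratio of 1.90 (1.75 to 2.06), and at 166.9 and 442.5 CPM in NIH/3T3 cells, a ratio of 2.65 (2.42 to 2.91), but at 52.5 and 54.4 CPM in mESCs. H3f3b had ratios of 1.30, 1.34 and 1.01 in N2a cells, NIH/3T3 cells and mESCs, and H2az2 of 1.53, 1.34 and 1.06, while H3f3a and H2az1 stayed within 1.00 to 1.13 in the 3 lines. H2ax was 2.65 times (2.16 to 3.27) higher in G2/M-high N2a cells, 2.92 times (2.15 to 4.03) higher in NIH/3T3 cells and 1.29 times (1.18 to 1.42) higher in mESCs.

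**Figure D5:**
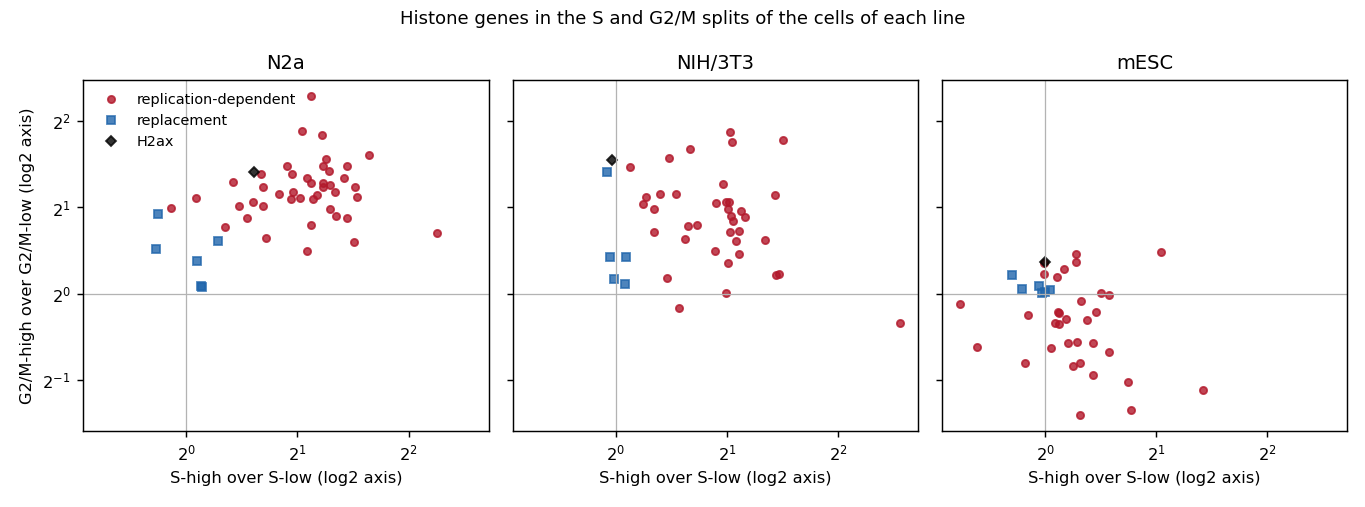
Ratio of the level in S-high over S-low cells (horizontal) against the ratio in G2/M-high over G2/M-low cells (vertical), both on log2 axes, for histone genes with at least 100 UMIs over the 3 lines and at least 20 UMIs in the split. Each point is a gene, by class, and grey lines mark a ratio of 1; replication-dependent genes lie mainly to the upper right in N2a and NIH/3T3 cells and around or below 1 on the vertical axis in mESCs.

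Crossing both splits separated the replication-dependent levels further in N2a and NIH/3T3 cells. In N2a cells the level was 566.8 CPM in 373 cells low in both scores, 1901 CPM in 350 cells high in S only, 2012 CPM in 312 cells high in G2/M only and 3468 CPM in 283 cells high in both. In NIH/3T3 cells these levels were 599.6, 1500.2, 1680.4 and 2299 CPM. In mESCs they were 989.3, 1183, 816.7 and 837.7 CPM, so the cells high in S only were the highest. Replacement levels in the same groups lay between 2084 and 2763 CPM in N2a cells, between 2015 and 2820 CPM in NIH/3T3 cells and between 2371 and 2617 CPM in mESCs.

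Replication-dependent RNA was also less even between single cells. After thinning cells to 5000 UMIs, which left out 933 N2a, 1046 NIH/3T3 and 1117 mESC cells, the variance over the mean of replication-dependent UMIs was 8.76 in N2a cells, 11.4 in NIH/3T3 cells and 4.13 in mESCs, and that of replacement UMIs 2.01, 1.76 and 1.48. The median cell had 6, 3 and 4 replication-dependent UMIs, and the 90th percentile was 24, 24 and 11 UMIs. No replication-dependent UMI was seen in 6.62%, 17.1% and 14.0% of these cells, and no replacement UMI in 0.647%, 0.505% and 0.196%. The median number of replacement UMIs was 12 in each line.

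Genes that handle histone RNA and histone proteins were compared from lists fixed with earlier results in view. Of 14 genes of histone transcription and 3′ processing found in the matrices, 2 were 2-fold higher in N2a than NIH/3T3 cells (against 19.6% of all genes tested) and 0 the reverse (against 16.5%). Of the same 14, 1 was higher in N2a cells than mESCs (against 19.1%) and 1 the reverse (against 20.1%), and 0 were 2-fold higher in NIH/3T3 cells than mESCs (against 19.1%) while 1 was lower (against 24.3%). None of these counts stood above the share over all genes. Eri1, an exonuclease that trims the histone stem-loop, was at 198.8, 95.4 and 75.1 CPM, and Cstf2, a cleavage factor, at 133.1, 84.4 and 70.4 CPM in N2a cells, NIH/3T3 cells and mESCs. Lsm10, a U7 snRNP subunit, was at 8.74, 14.6 and 8.52 CPM, and Zfp473, whose human counterpart binds the U7 snRNP, at 2.17, 0.342 and 11.4 CPM. Slbp itself was at 226.2, 124.2 and 162.8 CPM, and Npat, the activator of histone gene transcription, at 107.5, 103.2 and 136.3 CPM.

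Of 22 histone chaperone and deposition genes, 5 were 2-fold higher in mESCs than NIH/3T3 cells (against 24.3% of all genes tested) and 2 the reverse (against 19.1%), and 2 were higher in mESCs than N2a cells (against 20.1%) and 1 the reverse (against 19.1%), while 0 differed 2-fold between N2a and NIH/3T3 cells. These counts were also at or below the share over all genes. Nasp, a chaperone of H1, H3 and H4, was at 255.0, 367.1 and 964.7 CPM in N2a cells, NIH/3T3 cells and mESCs, and Daxx, a chaperone of H3.3, at 22.7, 17.6 and 61.4 CPM. Vps72, a subunit of complexes that deposit H2A.Z, was at 46.7, 59.8 and 24.996 CPM. Nasp and Slbp are also members of the S list, and without these and other histone-handling genes in the S list the replication-dependent ratio of S-high to S-low cells was 2.08 in N2a cells, 1.73 in NIH/3T3 cells and 1.12 in mESCs.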

How the data were processed

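CapSeq counts of N2a cells, NIH/3T3 cells and mESCs were used, with 1 library per line. The authors trimmed reads with Cutadapt, aligned them to the mouse genome (GRCm39) with STARsolo and deposited raw UMI counts per gene and barcode. The strand setting and the treatment of reads that match several genes are not given in the sources used here. Gene ends, overlaps and shared windows were taken from GENCODE M39, a later release than the one the authors counted with. A further matrix that pools samples was not used.

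Histone genes were selected by symbol. The members and gene lists were chosen with earlier results of these data known. UMIs were summed over cells, and ratios were given exact conditional binomial 95% intervals, which cover counting error only. Genes needed 10 UMIs in a comparison. A pseudocount of 1 CPM was used for calls of 2-fold between lines and 1.5-fold between ranges of the S or G2/M score, which were set at the 33rd and 67th percentile of UMIs in cells thinned to 1000 UMIs. Values were given for members with at least 100 UMIs over the lines, and from the histone-handling lists for the 2 genes per line with the largest CPM + 1 relative to the next line; Slbp, Npat, Nasp, H2bc7, H2ac1 and H3f3aos were added after their values were seen. Doublets were not called, and an alternative dropped the deepest 5% of cells. Other alternatives changed the minimum UMIs, denominator, pseudocount and split, and 1, which left out an N2a BC1 sequence, was chosen after seeing the data. Scripts were tested on simulated data and used Python 3.11.15, numpy 2.4.6, scipy 1.17.1 and pandas 2.3.3.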

Additional observations from a re-analysis of the deposited data

Results flagged for a closer look

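The replication-dependent level in G2/M-high over G2/M-low cells was on different sides of 1 in different lines, with 2.16 in N2a cells and 1.95 in NIH/3T3 cells but 0.732 in mESCs. For H3c3, an H3 gene, the ratio of S-high to S-low cells was 2.44 in N2a cells, 1.54 in NIH/3T3 cells and 0.652 in mESCs. For H2bc4, an H2B gene, that ratio was 1.99 in NIH/3T3 cells and 0.589 in mESCs. The intervals of these ratios lay on opposite sides of 1. With cells split by Pcna and Mcm5 only, however, the ratio for H2bc4 was 0.946 (0.553 to 1.57) in NIH/3T3 cells and 1.08 (0.776 to 1.50) in mESCs. For H3c3 in mESCs it was 1.05 (0.770 to 1.43). These intervals held 1, so that split showed no direction for these single genes. The difference between lines was not tested, since each line is 1 library.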

How the results depend on the processing

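No paired analysis was possible because each line is 1 library with no replicate. Of 98 main values recomputed under the alternatives, 68 moved by no more than their interval or by less than 1.5 times for counts, and 30 moved further. A change of direction was counted for 0 of them, but many are levels or counts, which have no direction. The mESC replacement ratio of S-high to S-low cells crossed 1 within its interval, from 1.002 to 0.994 with at least 2000 UMIs per cell. Of 1748 values of single genes, 1547 stayed, 195 moved and 6 were counted as changed in direction. With mitochondrial and ribosomal protein genes left out of the total, replication-dependent and replacement levels were 2184 and 2776 CPM in N2a cells, 2040.6 and 2815 CPM in NIH/3T3 cells, and 1096 and 2799 CPM in mESCs. As means of per-cell shares, replication-dependent levels were 2079.96, 1746 and 954 CPM in N2a cells, NIH/3T3 cells and mESCs, and replacement levels 2535 CPM in N2a cells and 2409.8 CPM in NIH/3T3 cells. The replication-dependent N2a level was 2009 CPM without the 5% of cells with the most UMIs and 1947 CPM without the BC1 sequence AGCTCCTC. A pseudocount of 5 left 3 members higher in N2a than NIH/3T3 cells and 0 the reverse. It left 10 higher in N2a cells than mESCs, 1 the reverse and 9 higher in NIH/3T3 cells than mESCs. In S-high cells of N2a, NIH/3T3 and mESC, 26, 20 and 1 members were higher at that pseudocount. A larger pseudocount lowers the fold of low genes by construction, and the share over all genes at 5 is not given here. The replication-dependent S ratio in N2a cells, NIH/3T3 cells and mESCs was 1.78, 1.55 and 1.11 when split at the median score. It was 1.43, 1.26 and 1.09 when split by Pcna and Mcm5 only, and 3.07, 2.88 and 1.31 when split by the unthinned share. The N2a replacement ratio was 1.09 by that share, and the NIH/3T3 replication-dependent ratio 1.86 without the 5% of cells with the most UMIs. Split by Pcna and Mcm5 only, the ratio moved to the other side of 1 in NIH/3T3 cells for H2ac21 (0.960), H4c14 (0.918) and H2bc4 (0.946). The same was seen in mESCs for H2ac20 (0.830), H2bc4 (1.08) and H3c3 (1.05). The interval of each of these ratios held 1, and the cause was not tested. Members with under 100 UMIs are limited by depth.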
